A study of Rattus norvegicus with 12 samples.

Results

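The interferon response genes examined here were Mx1, Mx2, Isg15, Irf7, Irf1, Ifit2, Ifit3, Oas1a and Usp18, taken as every probe set whose platform gene symbol is 1 of these 9 names. All 9 were measured, by 11 of the 31099 probe sets on the array, with 2 probe sets each for Ifit2 and Mx2. RNA came from the abdominal mammary glands of Sprague-Dawley females and was pooled before hybridisation to 12 Affymetrix arrays. The question was how soy protein and estradiol act on the gland, alone and together. Every rat was ovariectomized on postnatal day 50 and killed on day 64. The casein group ate casein from day 30 and received vehicle for the last 14 days. The casein plus E2 group received 17β-estradiol (E2) by mini-osmotic pump over those 14 days, and its casein diet comes from the treatment protocol, because its own diet label names the hormone only. The soy group ate soy protein isolate with vehicle, and the soy plus E2 group ate soy protein isolate with E2. Each group had 3 pools. Nothing in the labels says that the pools were made from separate animals, so the p-values measure the spread between pools.

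Interferons are cytokines that cells release on sensing viral or misplaced nucleic acid. Type I interferons bind the receptor of Ifnar1 and Ifnar2, and signalling through the kinases Jak1 and Tyk2 reaches the interferon-stimulated response element (ISRE) of target genes, whereas interferon gamma acts mainly at the gamma-activated site (GAS). Among the 9 genes, Mx1 and Mx2 encode dynamin-like antiviral GTPases, Ifit2 and Ifit3 RNA-binding proteins that restrain translation of viral RNA, and Oas1a an enzyme that makes the 2′,5′-linked oligoadenylates that activate RNase L. Isg15 encodes a ubiquitin-like modifier and Usp18 the protease that removes it and also dampens receptor signalling. Irf1 and Irf7 are transcription factors of the interferon regulatory factor family.

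The windows upstream of 5 genes are shown because each held letters matching ISRE, GAS or both. Each sequence is the 250 bases before the annotated start, 5′ to 3′ on the gene's strand, from RefSeq (GRCr8), and capitals mark matches to ISRE (GAAANNGAAA) or GAS (TTCNNNGAA) on either strand. The windows are chr1:241527076-241527325 (plus strand) for Ifit3, chr12:41330216-41330465 (plus) for Oas1a, chr1:205800024-205800273 (minus) for Irf7, chr10:38417685-38417934 (plus) for Irf1 and chr6:48788121-48788370 (minus) for Rsad2, an antiviral enzyme gene of the pathway lists described below.
Ifit3: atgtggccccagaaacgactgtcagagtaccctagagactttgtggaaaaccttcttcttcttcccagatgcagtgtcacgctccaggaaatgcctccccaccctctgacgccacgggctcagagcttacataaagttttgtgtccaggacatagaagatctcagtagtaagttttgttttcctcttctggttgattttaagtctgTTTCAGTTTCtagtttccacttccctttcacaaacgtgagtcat
Oas1a: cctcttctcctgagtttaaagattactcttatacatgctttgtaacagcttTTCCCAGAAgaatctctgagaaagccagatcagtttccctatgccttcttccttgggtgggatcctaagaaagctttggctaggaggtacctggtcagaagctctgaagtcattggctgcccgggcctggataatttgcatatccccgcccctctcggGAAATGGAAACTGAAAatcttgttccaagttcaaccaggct
Irf7: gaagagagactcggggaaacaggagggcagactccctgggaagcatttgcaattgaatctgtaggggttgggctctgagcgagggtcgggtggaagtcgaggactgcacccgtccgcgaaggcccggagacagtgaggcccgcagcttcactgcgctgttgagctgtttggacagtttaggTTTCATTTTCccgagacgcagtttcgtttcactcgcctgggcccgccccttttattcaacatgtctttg
Irf1: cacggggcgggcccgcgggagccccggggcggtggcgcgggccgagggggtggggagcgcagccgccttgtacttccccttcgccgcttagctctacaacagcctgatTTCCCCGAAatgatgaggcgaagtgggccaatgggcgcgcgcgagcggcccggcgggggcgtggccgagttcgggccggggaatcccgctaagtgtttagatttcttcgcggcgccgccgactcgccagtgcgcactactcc
Rsad2: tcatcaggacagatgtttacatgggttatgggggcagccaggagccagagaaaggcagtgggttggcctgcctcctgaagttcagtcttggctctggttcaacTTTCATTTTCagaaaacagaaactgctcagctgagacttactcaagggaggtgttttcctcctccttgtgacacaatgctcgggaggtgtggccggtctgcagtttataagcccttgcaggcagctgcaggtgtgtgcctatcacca

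The Ifit3 window held TTTCAGTTTC at 44 to 35 bases before the start, and the Irf7 window held TTTCATTTTC at 69 to 60 bases. The Oas1a window held 2 overlapping ISRE matches, GAAATGGAAA at 41 to 32 bases and GAAACTGAAA at 35 to 26 bases, and a GAS match, TTCCCAGAA, at 199 to 191 bases. The Irf1 window held a GAS match only, TTCCCCGAA at 142 to 134 bases, and the Rsad2 window an ISRE match at 147 to 138 bases. The Mx1 window held neither. Of 33469 rat promoter windows of this length, 3.41% held the ISRE letters and 7.67% the GAS letters. A match describes letters and no binding. Promoters of 5 of the 9 genes were matched, and those of Mx2, Isg15, Ifit2 and Usp18 were not used here.

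The deposited values were centred, so that each probe set's median over the arrays is 0 on a log2 scale. They give differences between arrays and no level, and neither the tissue's own markers nor the order of the genes' levels could be read from them. One label field calls the samples hepatic while the source field says mammary gland. The mean of 10 liver genes was 6.04 in casein pool 3 and between -0.37 and 0.31 in the other 11 arrays. The mean of 7 skeletal muscle genes reached 3.29 in casein pool 2 and 3.59 in soy pool 2. The mean of 23 lymphocyte genes was above 0 in 6 arrays (casein plus E2 pools 2 and 3, soy pools 2 and 3, soy plus E2 pools 1 and 3), from 0.59 to 1.97, and between -1.10 and -0.76 in the other 6, which included all casein pools. The 18 spike-in control probe sets split the arrays the same way, so lymphocyte content and this technical split cannot be told apart. Casein plus E2 pools 2 and 3 differed by an SD of 0.163 over probe sets, against at least 0.301 for the other 65 pairs of arrays, and were averaged and counted as 1 sample, which left 11.

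Ifit2 was the member with lower values under E2 that passed the test. Its values were 0.14, 0.52 and 0.22 in casein pools 1 to 3 and -0.60, -0.46 and -0.39 in casein plus E2 pools 1 to 3. They were 0.12, 0.24 and 0.10 in the soy pools and -0.59, -0.25 and -0.04 in the soy plus E2 pools. Every pool with E2 lay below every pool without it, in both diets. Averaged over the diets, Ifit2 fell by 0.63 ± 0.11 (SE, log2; 95% interval -0.88 to -0.38; limma adjusted p = 0.0126). Both Ifit2 probe sets passed the same test on their own, at -0.67 ± 0.14 (adjusted p = 0.0222) and -0.59 ± 0.10 (adjusted p = 0.0136). Of all genes, 12.2% were called in this contrast in either direction with 5.51% lower and 6.73% higher, against 1 of the 9 members. Ifit2 was also the 1 member for which all 6 pools with E2 lay below all 6 without it. With casein plus E2 pools 2 and 3 counted as 1 sample, 2.62% of all genes did so.

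Within casein-fed rats Ifit2 fell by 0.81 ± 0.17 (95% interval -1.18 to -0.44; limma adjusted p = 0.0406), again as the 1 member called, where 2.43% of all genes were called, 0.95% lower and 1.48% higher. Within soy-fed rats its difference was -0.45 ± 0.15 (adjusted p = 0.146), and limma called 0 of the 9 members, where 0.218% of all genes were called. There 1 member, Ifit2, and 20.6% of all genes had an unadjusted p under 0.05. The difference between the diets in the E2 response of Ifit2 was 0.36 ± 0.22 and did not pass the test. In this interaction limma called 0% of all genes and 0 members, the smallest adjusted p of a member was 0.797, and 0 members and 6.53% of all genes had an unadjusted p under 0.05.

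The Ifit2 call in casein-fed rats was near the threshold and was lost when any of 7 pools was left out, among them casein plus E2 pool 1 (adjusted p = 0.233), casein pool 2 (0.0989) and casein pool 3 (0.0651). The average over diets lost its call when casein plus E2 pool 1 was left out (-0.59, adjusted p = 0.0583). Without casein pool 2 that average was -0.57 (adjusted p = 0.0263), and without casein pool 3 it was -0.65 (adjusted p = 0.0187). With the lymphocyte mean as a covariate it was -0.63 (adjusted p = 0.0135). Among arrays with high spike-in values, the E2 difference of Ifit2 was -0.89 in casein, from casein plus E2 pool 1 against casein pools 1 to 3. In soy it was -0.38, from soy plus E2 pool 2 against soy pool 1. The low side held no casein pool. There the difference in soy was -0.49, from soy plus E2 pools 1 and 3 against soy pools 2 and 3. Marker genes of other cell types moved in the same contrast: 5 of 7 adipocyte genes were called lower (median -1.05), 2 of 6 endothelial genes were called lower (median -0.43), 6 of 12 luminal and 3 of 6 basal epithelial genes were called higher (medians 0.84 and 0.72), and 1 of 12 macrophage genes was called in each direction (median -0.19). All 7 skeletal muscle genes (median -1.73) and all 10 liver genes (median -1.09) were also lower averaged over diets, with 0 called. Within casein all 6 endothelial genes were lower without overlap (median -0.81, 2 called). Under E2, 8 of 12 macrophage genes were higher in casein (median 0.17) and 11 of 12 were lower in soy (median -0.57). Of all genes, 46.8% were lower in casein and 50.5% in soy. The part of these cell types in the Ifit2 result was not tested. In pooled whole tissue, fewer cells of a type and less RNA per cell cannot be told apart.

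**Figure D1:**
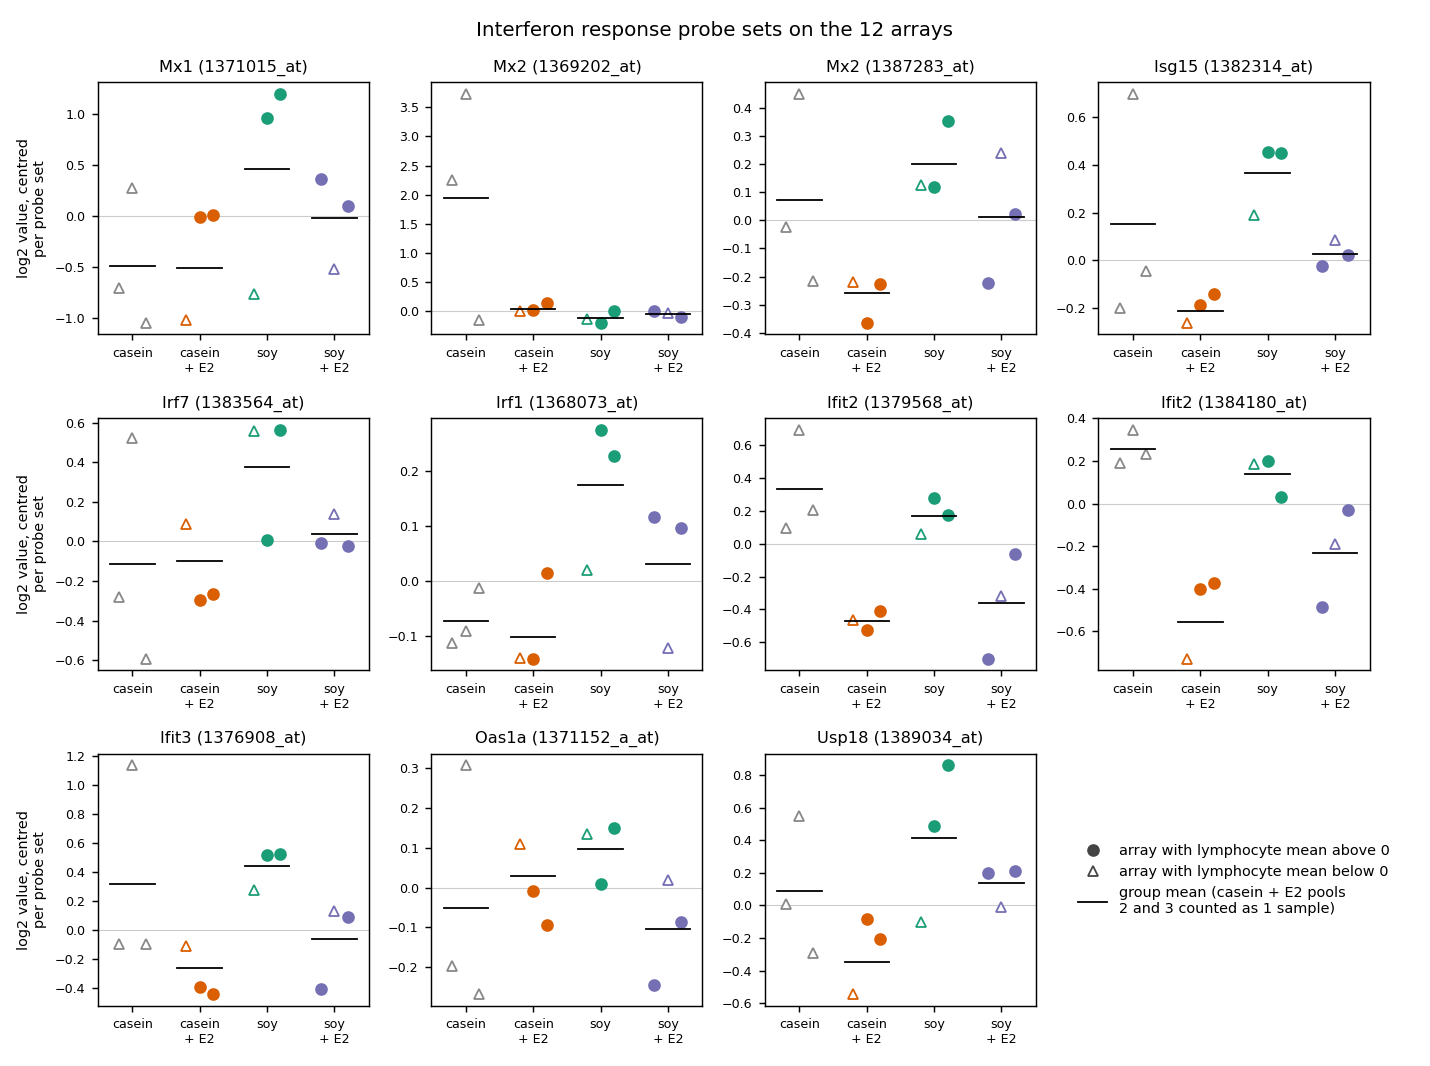
Log2 values, centred per probe set, of the 11 probe sets of the 9 genes in the 4 groups; each point is an array, filled circles are arrays with a lymphocyte mean above 0, open triangles are those below 0, and bars are group means. In both Ifit2 panels the E2 groups sit lower, and in 1 of the Mx2 panels only casein pools 1 and 2 stand above the rest, at 2.24 and 3.73.

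Ifit3, which lies next to Ifit2 with 0 protein-coding genes between them in GRCr8, had values of -0.09, 1.14 and -0.09 in casein, -0.11, -0.39 and -0.44 in casein plus E2, 0.28, 0.52 and 0.52 in soy, and -0.41, 0.13 and 0.09 in soy plus E2. Within each diet its pools with E2 lay below those without it. The E2 difference was -0.54 ± 0.23 averaged over diets (limma adjusted p = 0.154), and without casein pool 2, the highest array, it was -0.33 (adjusted p = 0.137). Isg15 had values of -0.20, 0.70 and -0.04 in casein, -0.26, -0.19 and -0.14 in casein plus E2, 0.19, 0.45 and 0.45 in soy, and -0.02, 0.08 and 0.02 in soy plus E2. Its groups did not overlap in soy and overlapped in casein, and its E2 difference of -0.35 ± 0.15 did not pass (adjusted p = 0.156). Usp18, the protease that removes Isg15 from proteins, differed by -0.36 ± 0.20 (adjusted p = 0.271).

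The remaining members did not pass under E2 either. The differences averaged over diets were -0.59 ± 0.33 for Mx2, -0.25 ± 0.41 for Mx1, -0.16 ± 0.20 for Irf7, -0.09 ± 0.07 for Irf1 and -0.06 ± 0.11 for Oas1a. All 9 members had a difference below 0, with a median of -0.35, where 48.9% of all genes were below 0 and the median of all genes was 0.00. In casein 7 of 9 were below 0 (median -0.36; all genes 46.8%), and without casein pool 2 there were 6 (median -0.09). In soy there were 9 of 9 (median -0.34; all genes 50.5%), and 8 without soy pool 3 (median -0.18). The median over diets was -0.21 without casein pool 2. Within casein Ifit2 and Ifit3 were lower without overlap (17.3% of all genes), and within soy Isg15, Ifit2 and Ifit3 were (12% of all genes). The casein share rests on 2 samples with E2, since casein plus E2 pools 2 and 3 counted as 1. The members share pools, so these counts describe a single set of samples.

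**Figure D2:**
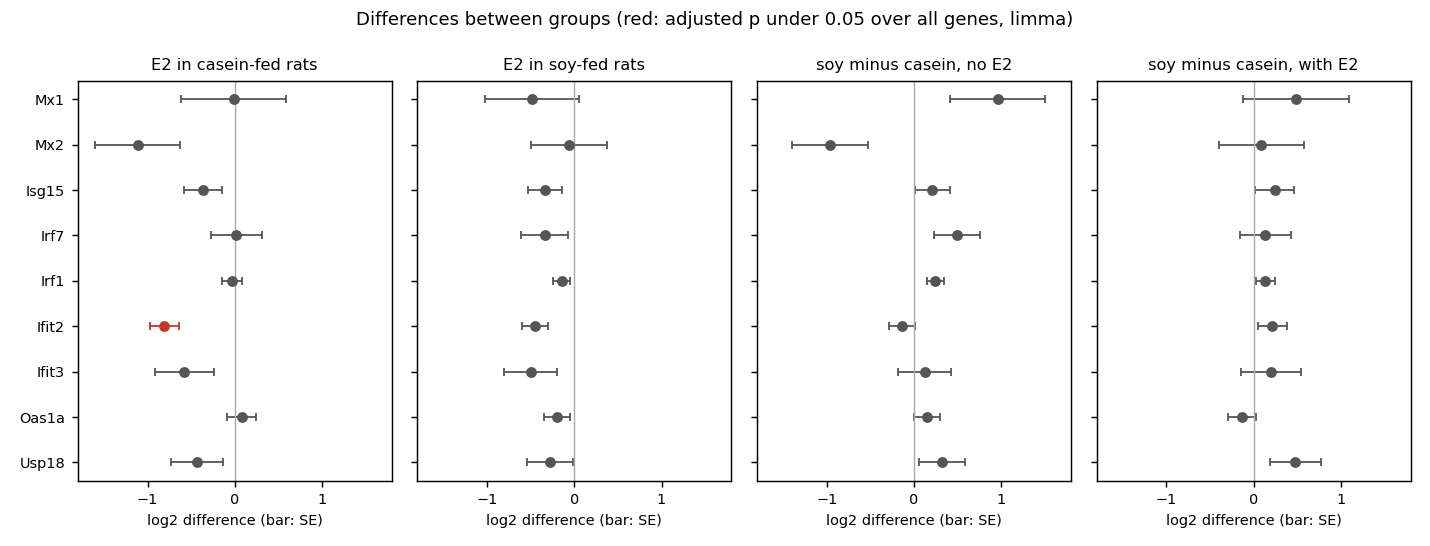
Log2 difference with its SE for the 9 genes in 4 contrasts: E2 in casein-fed rats, E2 in soy-fed rats, soy without E2 and soy with E2; red points passed an adjusted p under 0.05. Ifit2 in casein-fed rats is the red point, at -0.81.

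The 2 probe sets of Mx2 disagreed. The more variable probe set stood at 2.24 in casein pool 1, 3.73 in casein pool 2 and -0.15 in casein pool 3, and between -0.20 and 0.14 in the other 9 arrays. The less variable probe set stood at -0.02, 0.45 and -0.22 in the casein pools, and its range in the other arrays was -0.36 to 0.35. The high values were thus confined to casein pools 1 and 2 and to 1 of the probe sets. Of the 20826 probe sets that name a single gene, this more variable one was the 1 whose 2 highest arrays were these pools with both at least 1 log2 unit above the next array. Without that margin, probe sets of other genes correlated with it over the 12 arrays (Pearson's r up to 0.936, picked as the highest of all). The soy minus casein difference without E2 was -2.05 ± 0.72 for the more variable probe set (adjusted p = 0.46) and 0.13 ± 0.18 for the other (adjusted p = 0.857). For Mx2 as the mean of both, the E2 difference in casein was -1.11 ± 0.48 (adjusted p = 0.242), and from the less variable probe set alone it was -0.33. Without casein pool 3 the mean of both was called in the average over diets (-0.89, adjusted p = 0.0192).

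Casein pool 2 held the highest value of the 12 arrays for 5 of the 9 members, Mx2, Isg15, Ifit2, Ifit3 and Oas1a, where 16.3% of all genes had their highest value there. Soy pool 3 was highest for Mx1, Irf7 and Usp18, and soy pool 2 for Irf1. Casein pool 2 was also the array with the highest spike-in mean, 1.11, against 0.06 to 0.26 in the other 5 arrays on the high side, and it stood high in skeletal muscle genes. The part of these in the member values was not tested.

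Soy protein without E2 left all 9 members uncalled by limma, where 0% of all genes were called, and 1 member and 10.4% of all genes had an unadjusted p under 0.05. That member was Irf1. Its values were -0.11, -0.09 and -0.01 in the casein pools and 0.02, 0.28 and 0.23 in the soy pools, so the groups did not overlap, as for 7.79% of all genes in this direction. The difference was 0.25 ± 0.10 (adjusted p = 0.454). Mx1 gave the largest positive difference of the 9 members, 0.96 ± 0.54 (adjusted p = 0.559), with values of -0.71, 0.27 and -1.05 in casein and -0.77, 0.96 and 1.20 in soy. Soy pool 1 lay among the casein pools, and soy pools 2 and 3, the lymphocyte-rich ones, lay above them. Irf7 differed by 0.49 ± 0.26 (adjusted p = 0.546), Usp18 by 0.33 ± 0.26 and Isg15 by 0.21 ± 0.20. In all, 7 of 9 members were above 0 (median 0.21), where 48.5% of all genes were above 0. With the lymphocyte mean as a covariate 5 of 9 were above 0 (median 0.09), and Mx1 differed by -0.11 ± 0.35 (adjusted p = 0.978). Leaving out casein pool 1 or 3 gave a median of 0.08 or 0.11, leaving out soy pool 3 gave 0.12, and leaving out casein pool 2 gave 0.48.

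The diet calls depended on how arrays were weighted, for the members and for all genes. With array weights estimated from the data, limma called 3 members higher in soy without E2: Mx1 at 1.58 (adjusted p = 0.027), Irf1 at 0.34 (0.0263) and Isg15 at 0.50 (0.0388). In that weighted fit 11.2% of all genes were called. The weight was 0.386 for casein pool 2 and 0.31 for soy pool 1, and 3.89 for soy pool 2. In rats given E2, soy left 0 members called by limma, where 0.00703% of all genes were called, and 0 members and 5.1% of all genes had an unadjusted p under 0.05. There 8 of 9 members were above 0 (median 0.20; all genes 48.7%), and the median was 0.13 when casein plus E2 pool 1 was left out and 0.12 when soy plus E2 pool 3 was. Isg15, at 0.24 ± 0.22, and Usp18, at 0.48 ± 0.29, were higher in soy plus E2 without overlap, as were 10.5% of all genes. That share also counts casein plus E2 pools 2 and 3 as 1 sample.

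The lymphocyte-rich pools were compared through the slope of each gene on the lymphocyte mean, with the 4 groups in the model, so that the slope is read within groups. Mx1 had the 1 slope among the members that passed the test, rising by 0.61 ± 0.12 per log2 unit of lymphocyte mean (limma adjusted p = 0.0254), where 3.18% of all genes had a called positive slope and 0.499% a called negative one. Mx1 ranged from -0.01 to 1.20 (median 0.23) in the 6 lymphocyte-rich arrays and from -1.05 to 0.27 (median -0.74) in the other 6. The overlap came from casein pool 2, at 0.27. Among arrays of the soy plus E2 group, Mx1 was 0.36 and 0.10 in the lymphocyte-rich pools 1 and 3 and -0.52 in pool 2.

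The Mx1 slope lay between 0.55 and 0.65 when each array was left out. It lost its call without casein plus E2 pool 1 (adjusted p = 0.0705), soy pool 1 (0.619), soy pool 2 (0.0664), soy pool 3 (0.121) or soy plus E2 pool 1 (0.0556). Without casein pool 2 its adjusted p was 0.000708, and Usp18 was called as well (0.0459). Because the spike-in split runs with lymphocyte content, Mx1 was also fitted with that split in place of the slope, and the spike-in-high arrays differed from the low ones by -1.22 ± 0.31 (adjusted p = 0.118).

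The slopes of the other members did not pass. They were 0.24 ± 0.08 for Usp18 (adjusted p = 0.163), 0.09 ± 0.03 for Irf1 (0.166), 0.06 ± 0.08 for Isg15, 0.00 ± 0.06 for Ifit2, -0.01 ± 0.19 for Mx2, -0.02 ± 0.13 for Ifit3, -0.05 ± 0.06 for Oas1a and -0.10 ± 0.11 for Irf7. Usp18 had a median of 0.21 in the lymphocyte-rich arrays and -0.05 in the others, and Irf1 0.11 and -0.10, with overlap for both. The Ifit2 medians were -0.22 and 0.13, a comparison that is mixed with E2, since 4 of the 6 lymphocyte-rich arrays were from E2 groups.

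**Figure D3:**
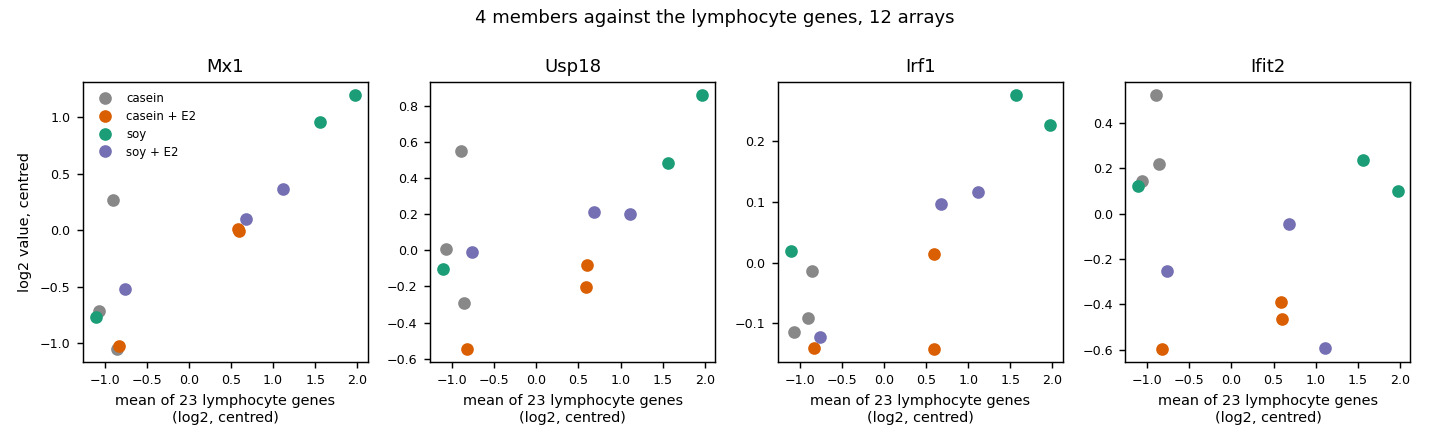
Centred log2 values of Mx1, Usp18, Irf1 and Ifit2 against the mean of 23 lymphocyte genes in the 12 arrays, coloured by group. Mx1 climbs with the lymphocyte mean (0.61 per log2 unit within groups), and Ifit2 shows a within-group slope of 0.00.

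Genes of the wider pathway were read from 7 lists, in which some genes appear more than once. On the lymphocyte mean, 11 of 29 interferon gamma target and antigen presentation genes had a called positive slope (median 0.19). Those of smallest p were Ciita, the regulator of class II genes, at 0.54 ± 0.05, Nlrc5 at 0.38 ± 0.07 and RT1-Db1 at 0.52 ± 0.10. Also called were the class II invariant chain Cd74 (0.37 ± 0.07), the class II gene RT1-Da (0.44 ± 0.09), RT1-DMa and RT1-DMb. The rest were Gbp4 (0.25 ± 0.05), Psmb9 (0.19 ± 0.04), Psmb10 and RT1-N3. Of all genes, 3.18% had a called positive slope. Without soy pool 3 the count of 11 became 1, in a fit that called 278 of all genes. Without soy pool 1 it became 3, in a fit that called 155. With all samples 452 genes were called with a positive slope and 71 with a negative one. Many of the interferon gamma target and antigen presentation genes are expressed in B lymphocytes themselves. The part of this in the slopes of these genes was not tested. The lymphocyte mean also holds T lymphocyte genes and runs with the spike-in split. The count was 1 of 9 interferon regulatory factors (Irf8, 0.64 ± 0.05), 2 of 10 nucleic acid sensing genes (Sting1, 0.56 ± 0.04, and Zbp1, 0.29 ± 0.06), 1 of 41 other type I target genes (Plac8), and 0 of 14 receptor and signalling genes.

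Under E2, averaged over diets, 5 of the 41 other type I target genes were called, 2 higher and 3 lower, a share like the 12.2% of all genes called in this contrast. Parp9 was higher by 0.90 ± 0.14 (limma adjusted p = 0.00861), and Dtx3l, which encodes its ubiquitin ligase partner and has 0 protein-coding genes between it and Parp9 in GRCr8, was higher by 0.61 ± 0.09 (adjusted p = 0.00778). Parp9 ranged from -0.45 to -0.09 in the 6 pools without E2 and from 0.09 to 0.89 in the 6 with it, with no overlap. Rsad2, which encodes viperin, fell by 0.63 ± 0.12 (adjusted p = 0.0154), and stood at -0.02, 0.43 and 0.02 in casein and -0.55, -0.51 and -0.43 in casein plus E2. Znfx1, an RNA helicase-like sensor, fell by 0.41 ± 0.08 (adjusted p = 0.017), and Ly6e, a membrane-anchored protein, fell by 0.41 ± 0.10 (adjusted p = 0.0278). The called type I targets thus lay in both directions. Of the 41, 28 were below 0, with a median of -0.17, where 48.9% of all genes were below 0 and their median was 0.00. Parp9 and Dtx3l kept their call when any of the 12 arrays was left out, Rsad2 and Znfx1 lost theirs only without casein plus E2 pool 1 (adjusted p = 0.0649 and 0.0748), and Ly6e lost its call without any of 7 pools (adjusted p up to 0.107).

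The receptor and signalling list held 2 of 14 called genes, also close to the share of all genes, both higher: Ifnlr1, the interferon lambda receptor chain, by 0.65 ± 0.16 (adjusted p = 0.0311), and the kinase Jak2 by 0.48 ± 0.13 (adjusted p = 0.0457). Gbp2, a guanylate-binding GTPase, was the 1 of 29 interferon gamma target and antigen presentation genes called, where 12.2% of all genes were. It fell by 0.51 ± 0.14 (adjusted p = 0.0415). The calls of these 3 genes were lost when single pools were left out, at the most without casein plus E2 pool 1 for Gbp2 (0.127) and Jak2 (0.139) and without soy plus E2 pool 1 for Ifnlr1 (0.0755). No call was made among the 3 measured interferon genes (Ifnk 0.46 ± 0.16, adjusted p = 0.0828), the 9 regulatory factors (Irf2bp2 0.25 ± 0.11, adjusted p = 0.167), the 10 sensing genes (Tlr8 -0.42 ± 0.12, adjusted p = 0.054) or the 6 genes of Isg15 conjugation (Uba7, the activating enzyme, -0.23 ± 0.09, adjusted p = 0.112). At an unadjusted p under 0.05 these 4 lists held 1, 1, 1 and 2 genes, where 29% of all genes did.

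**Figure D4:**
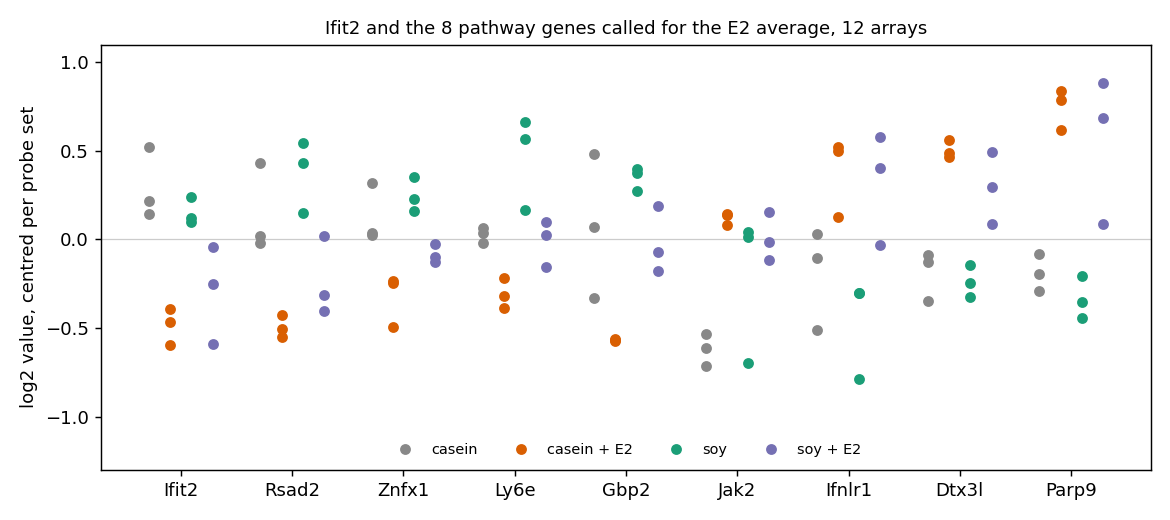
Centred log2 values of Ifit2 and of the 8 pathway genes called under E2 averaged over diets, by group, with each array as a point. Parp9, Dtx3l, Ifnlr1 and Jak2 are higher in the E2 groups, and Ifit2, Rsad2, Znfx1, Ly6e and Gbp2 are lower.

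Within casein-fed rats Dtx3l, at 0.68 ± 0.13 (limma adjusted p = 0.038), was the 1 gene of the 7 lists called besides the members. There 2.43% of all genes were called. Within soy-fed rats limma called 0, where 0.218% of all genes were called. In soy-fed rats 12 of the 41 other type I targets and 20.6% of all genes had an unadjusted p under 0.05. In soy without E2 limma called 0 genes of the lists, where 0% of all genes were called. Above 0 were 35 of 41 other type I targets (median 0.19) and 26 of 29 interferon gamma target and antigen presentation genes (median 0.44), against 48.5% of all genes. At an unadjusted p under 0.05 were 9 of the former, 14 of the latter and 10.4% of all genes. Among the latter were the peptide-loading gene Tapbp at 0.72 ± 0.15 (adjusted p = 0.391) and the immunoproteasome gene Psmb8 at 0.73 ± 0.18 (adjusted p = 0.398). In the same contrast the medians were 1.72 for 9 B lymphocyte genes, 1.65 for 14 T lymphocyte genes and 0.58 for 12 macrophage genes, with 0 of them called. The part of macrophage content in these diet differences was not tested, and neither was that of lymphocyte content in the pathway lists. For the 9 members the fit with the lymphocyte mean is given above.

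Across the 11 samples the members fell into partly separate patterns. Pearson's r was 0.918 for Isg15 with Ifit3, 0.899 for Mx1 with Usp18, 0.848 for Irf7 with Oas1a and 0.785 for Mx1 with Irf1. It was 0.09 for Mx1 with Mx2, which have 1 protein-coding gene, Fam3b, between them in GRCr8, and -0.34 for Mx2 with Irf1. The genes closest to the mean of the scaled members were Itga2b (r = 0.946, Spearman's rho = 0.864), Tpm4 (0.943, 0.855), Igsf6 (0.939, 0.845), Rcbtb2 (0.931), Bcat2 (0.925), Tmem184c (0.918), Apc (0.911), Fam53b (0.909), Hif1a (0.909) and Ccdc32 (0.905). Without casein pool 2 and soy pool 3, the samples farthest from the median of that mean, r was 0.842 for Itga2b, 0.85 for Tpm4 and 0.887 for Igsf6. For the rest r then ran from 0.77 (Apc) to 0.92 (Fam53b). These values describe samples that share pools, diets and the spike-in split, and the genes were picked as the highest of all.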

How the data were processed

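The file used holds 31099 probe sets for 12 arrays, 3 pools in each of 4 groups, with groups and pool numbers from the sample titles. RNA (8 µg, labelled with biotin) was hybridised to Affymetrix arrays, per the labels' protocols. Per the submitters' processing notes, the Affymetrix software GCOS was used, with no version stated. For summarisation, normalization and log base, details were not given in the sources used here. From their range the deposited values were taken to be log2, with each probe set's median over the arrays at 0, and every fold rests on this. Array medians lay between -0.0246 and 0.0112, and no further normalization was applied. Depth does not apply to arrays, and the number of pools limits the precision.

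Probe sets naming 1 gene (20826; 436 name several, 9780 are unnamed here and 57 are controls) were averaged per gene, giving 14217 genes, and symbols matched the GRCr8 table for all 11 member probe sets. Group means were fitted with limma 3.58.1 in R 4.3.3 (lmFit, eBayes) over 11 samples, with 7 residual degrees of freedom. In 6 contrasts the threshold for a call was a p, adjusted over all genes by Benjamini-Hochberg, below 0.05, and the slope on the lymphocyte mean was fitted with the groups as terms. The script was tested on simulated data. Named were all members, the called genes of each list (at most 3 in each direction by smallest p), or examples of smallest p where a list had none, the 10 genes most like the members' mean, and pathway genes where their role is described. The members and lists were chosen with earlier results of these data known. Pool numbers do not pair samples: of 18 same-numbered pairs across groups, 5 correlated over 0.1 (range -0.42 to 0.46). Alternatives were other normalizations, array weights, covariates, single probe sets, a block for pool number and leaving out each array. A filter on dim probes could not be run, because centred values hold no level.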

Additional observations from a re-analysis of the deposited data

How the results depend on the processing

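With the main setting 1 member was called under E2 in casein-fed rats, 1 under E2 averaged over diets, 1 for the lymphocyte slope and 0 in the other contrasts. Under E2 in casein the count was 0 with only the 2 groups fitted (Ifit2 adjusted p = 0.0676), with a term for the spike-in split (0.0607) and with the lymphocyte mean as a covariate (0.0514), and 0 to 1 when each array was left out. Ifit2 lost that call without casein pool 1 (0.0825), 2 (0.0989) or 3 (0.0651), casein plus E2 pool 1 (0.233), soy pool 2 (0.0662) or 3 (0.0551), or soy plus E2 pool 2 (0.0617). Without casein pool 3, Mx2 was called instead (0.036). Averaged over diets the count was 0 to 2 when each array was left out. With array weights, 1 member was called under E2 in soy (Ifit2 -0.56, adjusted p = 0.0241), where 14.3% of all genes were called, and 3 in soy without E2, where 11.2% were. The slope count was 0 with quantile normalization (Mx1 adjusted p = 0.057) and 0 to 2 when each array was left out. The pool number as a replicate block changed no call (Ifit2 -0.78, adjusted p = 0.0164, in casein, and -0.61, adjusted p = 0.00666, averaged over diets). All 9 members were below 0 under E2 averaged over diets, except for 7 with array weights and 8 without casein pool 2 or casein plus E2 pool 1. Of 1170 member differences under the alternatives, 1128 kept their sign and the other 42 were called in neither fit. The 1170 include differences that could not change, such as those with an array left out from a group outside the contrast. The share that kept its sign is therefore no measure of stability. Gbp2 had an adjusted p of 0.0609 and Jak2 of 0.0574 with quantile normalization. The slope with its alternatives, the use of 1 Mx2 probe set and leaving out arrays for the pathway genes were chosen after seeing the data. The causes of these shifts were not tested.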
